A study of Mus musculus with 8 samples.

Results

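The ribosomal protein genes were taken as the genes of the array whose symbol has the form Rpl, Rps or Rplp followed by a number and at most 1 of the endings a, x, l or l1. Each was read by its brightest probe set, a group of short probes against 1 transcript, among the probe sets annotated to a single gene. The pattern found 68 of the 17098 genes measured: 38 of the large ribosomal subunit, 22 of the small subunit, the 3 stalk genes Rplp0, Rplp1 and Rplp2, and 5 paralogues whose symbol ends in l or l1 (Rps27l, Rpl22l1, Rpl7l1, Rpl39l and Rpl3l). In RefSeq genes of the GRCm38.p6 assembly there are 85 symbols of this form, and 17 of them, among them Rps27, Rpl5, Rps3 and Rps27a, are not analysed here, so Rps27l has no measured parent beside it. The samples were mouse embryonic stem (ES) cells of strain C57BL/6 at passages 19 to 22, deficient in HPRT in both groups, kept first on feeder cells and then on gelatin. Total RNA came from 4 samples after 8 h with 2.5 µM cisplatin, a platinum drug that crosslinks DNA, and from 4 samples after 8 h with the solvent dimethyl sulfoxide (DMSO). The comparison asked which transcripts respond to the drug.

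A ribosome is built from ribosomal RNA and a large set of ribosomal proteins, most of them present once per particle, and growing cells keep the transcripts of these proteins among their most abundant. These transcripts usually begin with an uninterrupted run of C and T letters, the 5′ terminal oligopyrimidine (TOP) tract, through which the mTOR pathway controls their translation. When ribosome assembly is disturbed, free ribosomal proteins such as Rpl5 and Rpl11 bind Mdm2, the ubiquitin ligase that holds p53 down, and the paralogue gene Rps27l is itself a known p53 target. Some paralogues can stand in for their parent protein in certain tissues, as Rpl3l does in muscle and Rpl39l in male germ cells.

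Because the paralogues are where the members differed most from each other, the transcription start regions of all of them but Rpl3l are shown. Rps27l and Rpl22l1 stand beside their parent genes Rps27 and Rpl22, while Rpl7l1 and Rpl39l are shown without a parent. Rplp2 and Rpl35 are examples picked from the many members whose signal stayed level. Each line gives 40 bases before the RefSeq start and 20 bases from it, 5′ to 3′ on the gene's strand, from GRCm38.p6. Capitals mark a run of at least 8 letters that are all C or T, searched on the sense strand from 10 bases before the start to 20 bases from it.
Rps27l (chr9:66946046-66946105, + strand): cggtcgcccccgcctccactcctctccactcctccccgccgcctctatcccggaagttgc
Rps27 (chr3:90213629-90213688, - strand): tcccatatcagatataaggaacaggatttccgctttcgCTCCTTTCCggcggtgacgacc
Rpl22l1 (chr3:28805468-28805527, + strand): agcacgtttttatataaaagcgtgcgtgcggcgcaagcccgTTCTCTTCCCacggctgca
Rpl22 (chr4:152325686-152325745, + strand): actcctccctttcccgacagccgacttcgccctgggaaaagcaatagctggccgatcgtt
Rpl7l1 (chr17:46782637-46782696, - strand): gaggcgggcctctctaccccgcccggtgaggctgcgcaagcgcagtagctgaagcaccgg
Rpl39l (chr16:10170188-10170247, + strand): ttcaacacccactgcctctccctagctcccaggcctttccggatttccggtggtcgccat
Rplp2 (chr7:141447611-141447670, + strand): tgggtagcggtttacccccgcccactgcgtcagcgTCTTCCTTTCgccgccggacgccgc
Rpl35 (chr2:39005112-39005171, - strand): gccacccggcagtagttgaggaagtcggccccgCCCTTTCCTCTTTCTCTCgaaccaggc

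RefSeq windows of 300 bases, from 250 before the start, were at hand for 54 of the 68 members, with 65 windows in all since a gene can have several starts. The pyrimidine run was in 21 of the 65 windows (32.3%), against 11.2% of all 32851 windows of the same length. It was in 20 of 58 windows (34.5%) of the members other than paralogues, and in 1 of 7 windows of the paralogues. CCGGAAG, the core letters of a site for ETS factors, was searched on both strands and was in 24 of the 65 windows (36.9%), against 8.86% of all windows. Among the windows shown, the run lies at the start of Rps27, Rpl22l1, Rplp2 and Rpl35, and the letters ccggaag lie just after the start of Rps27l. For genes with more than 1 start, Rps27l and Rpl22 here, the start listed first is shown. The genes shown were chosen partly by their array values, so they do not show how the run is shared between level and changed genes. The matches describe the sequence, and no test set them against the array values.

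None of the 68 genes passed the test for a difference between cisplatin and DMSO (limma, adjusted p under 0.05 over all 17098 genes), where 19.3% of all genes did. At an unadjusted p under 0.05 there was 1 member, Rps27l, against 31.0% of all genes. The changes ran from -0.17 for Rpl39l to 0.14 for Rpl3l on the log2 scale, where 1 unit is a doubling of signal. Their median was 0.012, beside 0.013 over all genes, and their median size was 0.017, beside 0.10 over all genes. For 61 of the 68 genes the 95% interval of the change lay within 0.2 log2 units of 0, or 1.15-fold, so the arrays gave a narrow bound on the measured signal. The replicates were tight as well, with a median SD of 0.025 among the 4 cisplatin arrays and 0.026 among the 4 controls. Over all genes it was 0.10 in both groups. Neither trait was particular to these genes. The 18 other genes with a mean signal of 13 or more had median SDs of 0.025 and 0.023, and a median size of change of 0.017. Nothing in the labels names separate cultures for the replicates. The spread among these 8 samples may thus be technical. The SE behind each p-value and interval is not that of the gene alone, as limma draws each gene's spread toward that of all genes. Over the members the median SE was 0.047 in limma and 0.019 from their own arrays.

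**Figure D1:**
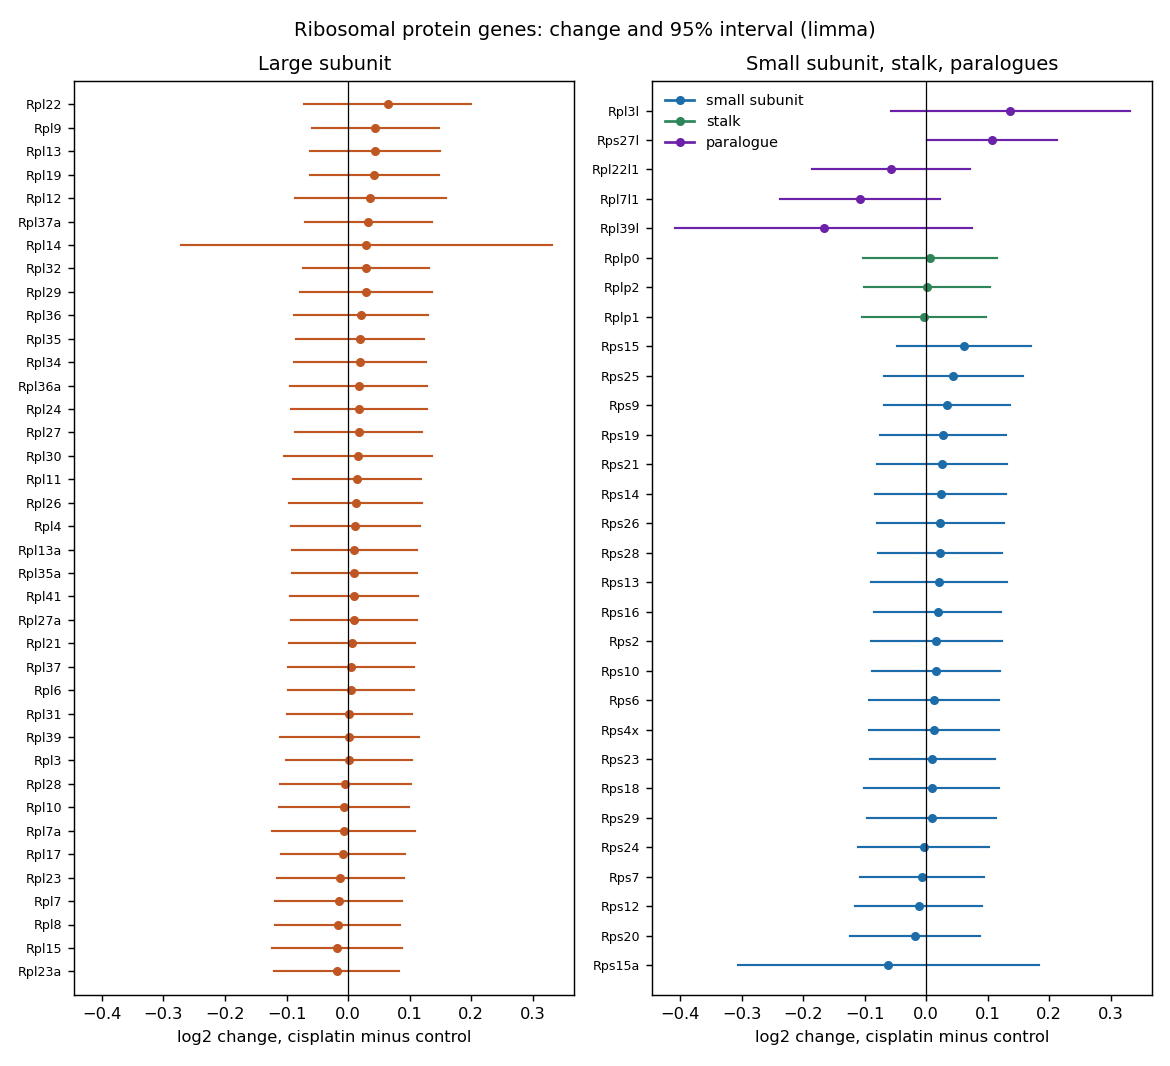
Change of the 68 ribosomal protein genes on the x axis (log2, cisplatin minus control), as points with the 95% interval of limma as bars, by gene on the y axis and coloured by role. All intervals but that of Rps27l reach across 0, and those of Rpl14, Rps15a, Rpl39l and Rpl3l are the widest.

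The signal of nearly all of these transcripts was at the top of the array's range. The mean over the 8 arrays was at least 12 for 63 of the 68 genes and at least 13 for 48, on a scale whose highest single value was 13.72. The Cre spike-ins, control RNAs added in known amount before hybridisation, read 12.76 ± 0.053 and 12.48 ± 0.078 (SD, n = 4, 2 probe sets) on the cisplatin arrays. In the same upper range few other genes were called either. Of the 128 other genes at 12 or more, 4 passed the test (3.12%), and the brightest of these was Eif3f, which encodes a subunit of an initiation factor, at a mean of 12.40. The call of Eif3f was lost whichever array was left out, as given below. None of the 18 other genes at 13 or more passed. Of the 2440 other genes between 8 and 10, by contrast, 30.4% passed, with a median size of change of 0.13 against 0.038 at 12 or more. The level of the signal thus moved with the size of the changes, and its part in the level result for the ribosomal protein genes was not tested.

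**Figure D2:**
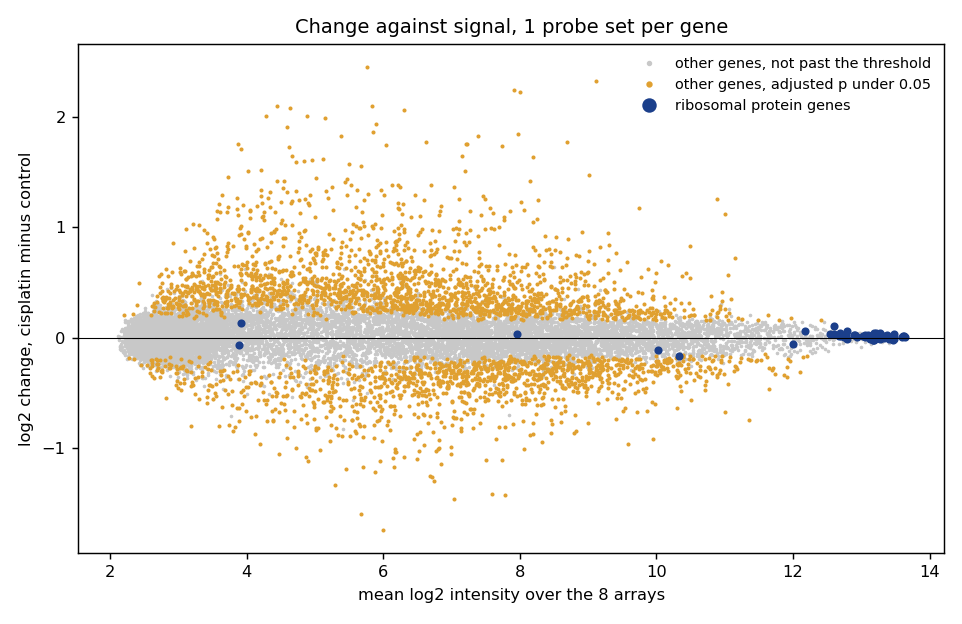
Change (log2, cisplatin minus control, y axis) against the mean log2 intensity over the 8 arrays (x axis), 1 point per gene, for the 68 ribosomal protein genes and the 17030 others, coloured by whether they passed the test. The cloud narrows to the right, where 63 of the ribosomal protein genes lie at 12 or more.

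Of the 38 large-subunit genes, 29 had a change above 0 and 9 below, with a median of 0.011 and a range of -0.019 to 0.065. Rpl3, a protein near the peptidyl transferase centre, read 13.29, 13.30, 13.30 and 13.28 with cisplatin and 13.32, 13.29, 13.28 and 13.26 in the controls. Rpl4, which lines the exit tunnel of the nascent chain, was the brightest member, at 13.65 ± 0.013 on the cisplatin arrays (SD, n = 4) and 13.64 ± 0.035 on the controls. In both genes the groups overlapped. The groups did not overlap in 2 of the 68 members, Rpl9 and Rps27l, both higher with cisplatin. Over all genes the groups did not overlap in 24.3%, and in 14.2% with cisplatin higher. Rpl9 read 13.21, 13.22, 13.19 and 13.20 with cisplatin and 13.17, 13.17, 13.18 and 13.13 in the controls. Its change of 0.044 ± 0.046 (SE) did not pass the test (limma, adjusted p = 0.582). Rpl14 was far dimmer than the rest, at 7.98 ± 0.088 and 7.95 ± 0.31, and its other probe sets, annotated also to a pseudogene, were left out.

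The 22 small-subunit genes had 17 changes above 0 and 5 below, with a median of 0.016. Rps6, the substrate of the S6 kinases downstream of mTOR, had a mean of 13.47 ± 0.030 on the cisplatin arrays (SD, n = 4) and 13.45 ± 0.027 on the controls. Rps19, the gene most often mutated in Diamond-Blackfan anemia, was at 13.19 ± 0.020 and 13.16 ± 0.013. The highest value was that of Rps15, a protein near the decoding site, at 0.061 ± 0.049 (SE), and its groups overlapped, from 12.79 to 12.87 with cisplatin and from 12.71 to 12.79 in the controls. Rps15a was the dimmest member, at 3.86 ± 0.096 and 3.92 ± 0.24, close to the 3.10 of background probes, and its interval of -0.31 to 0.18 says little about its transcript. It has 1 probe set with a single gene. Of 15 Diamond-Blackfan genes measured, from a list of 19, none passed the test, and their median was 0.012. Among all genes 19.3% passed, and among the other genes at 12 or more 3.12%.

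The stalk proteins recruit the elongation factors to the ribosome. Rplp0, which anchors the stalk, read 13.36, 13.33, 13.41 and 13.33 with cisplatin and 13.34, 13.38, 13.37 and 13.31 in the controls. Rplp1 and Rplp2, its acidic partners, changed by -0.0038 ± 0.045 and 0.00092 ± 0.046 (SE). That of Rplp2 was the smallest change of any member. The 3 intervals ran from -0.105 at the lowest to 0.115 at the highest.

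Of the ribosomal proteins known to bind Mdm2, 9 of the 12 listed were measured, and none passed the test, with a range of -0.018 to 0.044. Their signal lay between 12.68 and 13.61, where few other genes passed either (3.12% at 12 or more, beside 19.3% of all genes). Rpl11, whose protein holds Mdm2 together with Rpl5, was at 13.20 ± 0.024 on the cisplatin arrays (SD, n = 4) and 13.18 ± 0.023 on the controls. Rpl23 was at 13.39 ± 0.028 and 13.41 ± 0.0072, and Rpl26, which also binds the p53 transcript, at 13.61 ± 0.045 and 13.60 ± 0.013. The remaining values were 0.044 for Rps25, 0.023 for Rps14 and 0.023 for Rps26, 0.0046 for Rpl37, -0.0076 for Rps7 and -0.018 for Rps20. A change in free protein or in translation is outside what these arrays read.

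The paralogues had larger changes and lower signal than the other members. Their median size of change was 0.11, against 0.016 over the other 63 genes, and their median level of 10.33 lay well below the 13.19 of the others. Among genes that do not encode these ribosomal proteins, the median size was 0.092 at a signal of 10 to 11 and 0.041 at 12 to 13. Rps27l and Rpl22l1, whose signal lay between 12 and 13, changed by 0.11 and -0.057. Whether the larger changes of the paralogues go beyond their lower signal was not tested. Rps27l read 12.65, 12.66, 12.67 and 12.64 with cisplatin and 12.55, 12.56, 12.59 and 12.49 in the controls. Every cisplatin array lay above every control. The change was 0.11 ± 0.048 (SE), or 1.08-fold, with an interval from 0.00056 to 0.21 and an adjusted p of 0.159 (limma). It lay above the changes of all 61 other subunit and stalk genes at 12 or more, whose range was -0.019 to 0.065. The other 2 probe sets of Rps27l gave 0.13 ± 0.052 and 0.075 ± 0.052, again with no overlap. Where the test let the expected spread follow the intensity, so that bright genes were held to the small spread of bright genes, Rps27l passed (SE 0.025, adjusted p = 0.00515). It also passed with its own spread alone (SE 0.021, adjusted p = 0.0215), in a fit chosen after seeing the data. After centring each array on its median over all tested genes, which lowers every change by 0.13, its value was -0.024 (adjusted p = 0.745).

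**Figure D3:**
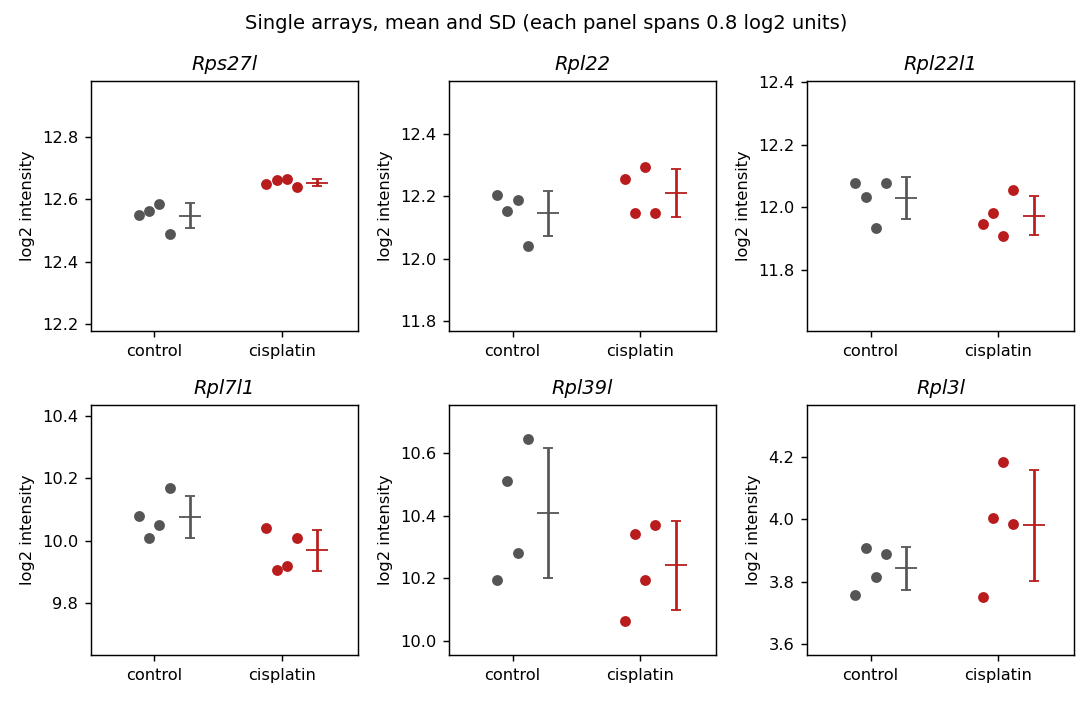
Log2 intensity (y axis) on the single control and cisplatin arrays for the 5 paralogues and Rpl22, with the mean and SD of 4 arrays beside the points; each panel spans 0.8 log2 units. The groups are apart for Rps27l and overlap in the other panels.

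Rpl22 and Rpl22l1 are a pair in which the parent protein is known to hold back the transcript of the paralogue. Rpl22 read 12.26, 12.15, 12.29 and 12.15 with cisplatin and 12.20, 12.15, 12.19 and 12.04 in the controls, a change of 0.065 ± 0.061 (SE). Rpl22l1 read 11.95, 11.98, 11.91 and 12.06 with cisplatin and 12.08, 12.03, 11.93 and 12.08 in the controls, a change of -0.057 ± 0.057. The groups overlapped for both. The change of Rpl22l1 minus that of Rpl22 within the same arrays was -0.12 (two-sided exact permutation test over 70 assignments, p = 0.2), and the per-array differences overlapped, from -0.39 to -0.091 with cisplatin and from -0.25 to 0.034 in the controls. When the more variable, dimmer probe set stood for Rpl22 the difference was -0.28 (exact p = 0.0286, the smallest that 70 assignments allow). That probe set was picked by its variance over all arrays, which includes any difference between the groups, so its p-value is no independent test. It may also match several transcripts.

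The 3 remaining paralogues overlapped between the groups. Rpl7l1, a relative of Rpl7, read 10.04, 9.91, 9.92 and 10.01 with cisplatin and 10.08, 10.01, 10.05 and 10.17 in the controls, a change of -0.11 ± 0.058 (SE; limma, adjusted p = 0.248). Rpl39l read 10.06, 10.34, 10.19 and 10.37 against 10.20, 10.51, 10.28 and 10.65, a change of -0.17 ± 0.11. In Rpl39l the arrays numbered 4 and 6 were the high ones in both groups. Rpl3l, the muscle form, lay near background at 3.98 ± 0.18 and 3.84 ± 0.069 (SD, n = 4), and its change was 0.14 ± 0.087.

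The 68 genes have 130 probe sets with a single gene, and 33 genes have more than 1. Besides the 68 brightest there were 62 others. Of these, 31 were also at 12 or more and had changes between -0.037 and 0.13. The 28 that lay under 10 had changes between -0.23 and 0.46. When every probe set was tested, an alternative chosen after seeing the data, 2 of the 130 passed, both higher and both among the dimmer ones, against 16.3% of all 28898 probe sets.

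The first of these belonged to Rpl13. It read 8.88, 8.71, 8.82 and 8.82 with cisplatin and 8.30, 8.31, 8.42 and 8.35 in the controls, so that the groups were apart, and it changed by 0.46 ± 0.059 (SE; limma, adjusted p = 0.000544). The brightest probe set of Rpl13 changed by 0.044 ± 0.047, from 13.19 ± 0.034 (SD, n = 4) to 13.24 ± 0.023. The second belonged to Rpl22. It read 7.74, 7.82, 7.90 and 7.85 with cisplatin and 7.69, 7.50, 7.65 and 7.57 in the controls, a change of 0.22 ± 0.064 (adjusted p = 0.0377). Both have an identifier ending in _s_at, which marks probes that can match several transcripts, so their signal need not come from the transcript that the brighter probe set reads.

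Over all 130 probe sets the groups did not overlap in 11, against 21.6% of all 28898. Apart from the probe sets of Rpl13, Rpl22, Rps27l and the brightest of Rpl9 they belonged to Rps20, Rps10, Rps24, Rps15 and again Rpl9. A dim probe set of Rps20 read 4.96, 5.04, 5.09 and 5.04 with cisplatin and 4.71, 4.56, 4.14 and 4.95 in the controls, at 0.44 ± 0.14 (SE; limma, adjusted p = 0.0594). A dim one of Rps10 was at -0.23 ± 0.075 (adjusted p = 0.0634). Their bright counterparts were at -0.018 and 0.016. For Rpl9 the dim probe set gave 0.17 ± 0.055 (adjusted p = 0.0607) beside 0.044 for the bright one. The values of the dim probe sets thus lay above 0 in some genes and below 0 in others.

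**Figure D4:**
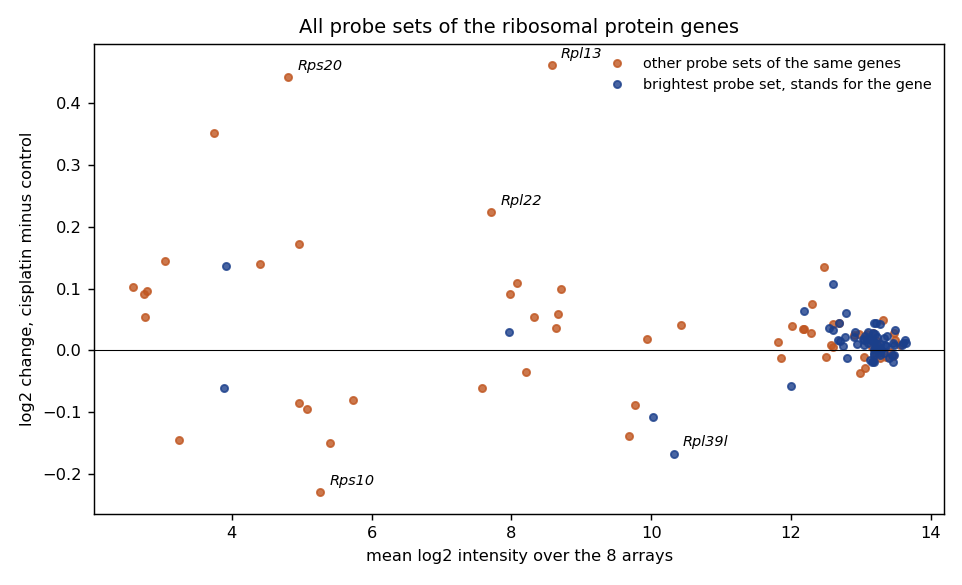
Change (log2, cisplatin minus control, y axis) against mean log2 intensity over the 8 arrays (x axis) for the 130 probe sets of the 68 genes, coloured by whether the probe set stands for its gene. Probe sets at 12 or more lie within -0.057 and 0.13, while dimmer ones spread from -0.23 to 0.46.

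As deposited, 50 of the 68 changes were above 0 and 18 below. This direction depended on the scale. After centring on the median of all tested genes 1 was above 0 and 67 below, and the median was -0.12. Then 4 genes passed as lower (Rpl7l1, Rpl22l1, Rpl15 and Rps20). Over all genes the calls went from 1989 higher and 1314 lower to 1087 and 3925. That centring lowers every change by 0.13, while the median change over all genes as deposited was 0.013. The other scalings did not turn the direction. Quantile normalization again left 40 above 0 and 28 below. Centring on the median of the 4275 genes of highest signal, a range from 7.56 that holds all members but Rps15a and Rpl3l, moved the arrays by only -0.0027 and left 50 above 0 and none past the test. The mean over the 61 subunit and stalk genes at 12 or more was 13.15, 13.17, 13.16 and 13.16 on the cisplatin arrays and 13.15, 13.16, 13.15 and 13.13 on the controls. The groups overlapped, and the lowest value was that of control replicate 6.

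Other parts of the translation machinery are given from lists of known members. The 4 ribosomal proteins measured outside the pattern, Rpsa, Fau, Rpl36al and Rps3a1, had no call and a range of -0.0013 to 0.041. Their signal was above 12, where 3.12% of the genes outside the pattern passed. Of 10 genes on a list of elongation and release factors and related proteins 2 passed the test (20%, beside 19.3% of all genes), with a median of -0.013 beside 0.013. Both were lower (7.69% of all genes were), Eef2k, the kinase that inhibits elongation factor 2, by -0.57 ± 0.10 (SE; limma, adjusted p = 0.00339) and the release factor gene Etf1 by -0.22 ± 0.052 (adjusted p = 0.0140). The abundant elongation factor gene Eef1a1 was at -0.027 (adjusted p = 0.757). Eef1e1 was at -0.16 (adjusted p = 0.0835), and passed after centring, without dim genes and with an intensity trend (adjusted p = 0.0103, 0.0489 and 0.00666).

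Of 17 further TOP transcripts 2 passed (11.8%, beside 19.3% of all genes), with a median of -0.0018. Gas5, a noncoding host of small nucleolar RNAs, fell by 0.32 ± 0.068 on the log2 scale (SE; limma, adjusted p = 0.00774), though not with its most variable probe set (adjusted p = 0.0657). Eif3f rose by 0.16 ± 0.047 (adjusted p = 0.0418), a call that was lost whichever array was left out (adjusted p from 0.0596 to 0.0970), and its value was 0.0016 without _x_at and _s_at probe sets. Of 36 initiation factors 3 passed (8.33%, beside 19.3% of all genes), with a median of -0.0047. All 3 were higher (11.6% of all genes were), Eif3f, Eif1b at 0.21 ± 0.053 and Eif4e3 at 0.44 ± 0.13. Eif4e3 was dim, at 4.32 with cisplatin and 3.88 in the controls, near the background of 3.10, and its groups overlapped. The call of Eif1b did not hold when cisplatin replicate 4, cisplatin replicate 5 or control replicate 3 was left out (adjusted p = 0.0525, 0.0535 and 0.0581). That of Eif4e3 held in 2 of the 8 such fits, those that left out cisplatin replicate 3 (adjusted p = 0.0343) and control replicate 5 (adjusted p = 0.0130), and in the other 6 the adjusted p ran from 0.0551 to 0.108. After centring the adjusted p was 0.264 for Eif1b and 0.0786 for Eif4e3. Of 8 chaperones and assembly helpers of ribosomal proteins 2 passed (25%, beside 19.3% of all genes), with a median of -0.056. Both were lower (7.69% of all genes were), Heatr3, which helps bring Rpl5 into the nucleus, at -0.22 ± 0.053 (adjusted p = 0.0150) and Rrs1, an assembly factor of the large subunit, at -0.22 ± 0.066 (adjusted p = 0.0427). The call of Rrs1 held in 1 of the 8 fits with an array left out, that without cisplatin replicate 5 (adjusted p = 0.0418), and in the others the adjusted p ran from 0.0549 to 0.106.

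The mitochondrial ribosome has its own proteins, coded in the nucleus, and its genes gave 10 higher and 1 lower of 73, with a median of 0.062, a split that turned to 2 higher and 8 lower after centring. Mrps6 rose by 0.53 ± 0.062 (SE; limma, adjusted p = 0.000332) and Mrpl16 by 0.33 ± 0.057, while Mrps27 fell by 0.35 ± 0.059 on the log2 scale. Their median signal was 9.65, against 13.18 for the cytosolic genes. Their share called was 15.1%, beside 19.3% of all genes. The 11 calls became 6 when cisplatin replicate 3, control replicate 3 or control replicate 4 was left out, and 5 when cisplatin replicate 5, cisplatin replicate 6 or control replicate 5 was. They were 6 with the most variable probe set and 20 with an intensity trend. The share of all genes called in these same fits is not given here. A shift of these genes alone thus cannot be told from a shift of all genes. Whether cytosolic and mitochondrial genes differ in their response was not tested, since their signals lie in different ranges.

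The 7 ES cell markers measured had mean levels of 9.42 to 13.41 over the arrays. Esrrb, Zfp42, Utf1 and Nanog passed the test as lower with cisplatin (4 of 7, beside 7.69% of all genes), while Sox2 (11.24 and 11.35), Pou5f1 (12.19 and 12.23) and Dppa5a (13.41 and 13.42) did not pass. Of 10 fibroblast markers, which feeder cells would carry, 5 lay under the background of 3.10 in both groups, Col1a1 was at 3.37 and 3.46 and Col3a1 at 3.49 and 3.55. Vim was at 10.78 and 10.86, Fn1 at 9.89 and 10.20 (called lower) and Thy1 at 5.23 and 4.62 (called higher). The part of these markers in the values of the ribosomal protein genes was not tested. Hprt was at 4.84 ± 0.16 (SD, n = 4) and 4.60 ± 0.37, and as the labels do not give the kind of mutation this does not check the label. Arrays of the same group correlated at 0.997 to 0.998 over the 17098 genes. In bulk RNA, fewer cells that express a gene and less of its RNA per cell cannot be told apart, and a change in total RNA per cell is not seen after normalization between arrays.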

How the data were processed

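The values are log2 intensities that the authors deposited for 8 arrays, 4 per group. It was made with RMA, and limma is named too, per the submitters' processing notes; no version of either is given. RNA was labelled by a 3′ kit, per the labels' protocols. RMA corrects background, equalises the arrays and summarises each probe set.

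Of 45141 probe sets, 28898 have 1 gene in the platform annotation, 551 have several and 15588 besides 104 controls have none listed. Symbols were updated through Entrez identifiers, and the brightest probe set stood for a gene. The 2 groups were compared in R 4.3.3 with limma 3.58.1 (lmFit, eBayes) with Benjamini-Hochberg adjustment at 0.05, with no filter on dim genes; the script was tested on simulated data. Background, 3.10, is a probe set of 24 G or C. The number of arrays and the spread between them set the precision. The paralogue pair used an exact permutation test.

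Members and lists were chosen with earlier results of these data known. Named by rule are all called members, the paralogues, stalk genes, Mdm2 binders, the largest and smallest changes, 3 genes of smallest p per list, and Hprt. Rpl3, Rpl4, Rpl9, Rpl13, Rpl14, Rpl15, Rpl35, Rps6, Rps15, Rps15a, Rps19, the genes with non-overlapping dim probe sets and Eef1a1, the array markers and the Cre controls were added after their values were seen. The planned comparison of Rps27l with Rps27 was not run, as Rps27 is not analysed here. Figures used matplotlib 3.10.9.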

Additional observations from a re-analysis of the deposited data

Results flagged for a closer look

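In 8 of the 136 groups of 4 arrays (68 genes, 2 groups each; 5.88%) the highest or lowest array stood apart from the other 3 by Dixon's criterion at 95%, which chance passes in about 1 of 20 groups. With cisplatin, these were replicate 4 for Rpl19 at 13.32 and for Rps18 at 13.38, and replicate 5 for Rpl7 at 13.16, all high. Among the controls, replicate 6 was low for Rpl30 at 12.61, replicate 5 was high for Rps13 at 12.96 and low for Rps26 at 13.01, replicate 4 was high for Rps23 at 13.23, and replicate 3 was low for Rps28 at 13.20. The largest distance to the nearest array of the group was 0.11 log2 units, in Rpl30.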

How the results depend on the processing

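No ribosomal protein gene was called, and the same held when any 1 array was left out (lowest and highest count 0), with quantile normalization again, robust eBayes, no dim genes, annotated symbols, no _x_at or _s_at probe sets, no paralogues or centring on the 4275 genes of highest signal. Calls appeared with the most variable probe set (2, Rpl13 and Rpl22), the mean of probe sets (1, Rpl13), centring on all tested genes (4, all lower), an intensity trend (1, Rps27l) and, both chosen after seeing the data, a fit without moderation (1, Rps27l) and every probe set fitted (2, Rpl13 and Rpl22). Calls over all genes went from 3303 to 5012 after centring. The 19 calls of the translation lists became 12 with the most variable probe set, 30 after centring and 34 with an intensity trend, and 10 to 16 with 1 array left out. Apart from centring, the calls over all genes in these settings are not given beside them. The difference of Rpl22l1 and Rpl22 was -0.28 with the most variable probe set, and -0.17 to -0.072 with 1 array left out. Same-numbered arrays correlated at 0.20, 0.18, 0.20 and 0.065 in their deviations from the group means, and 7 of the 8 arrays correlated best with their own number. This is a hint of pairing from the data that fell short of the criterion used, over 0.1 in each pair, so the fit without a block was kept. With a replicate block 3447 genes and 0 of the 68 were called; the SE of Rpl39l went from 0.11 to 0.053 (limma, adjusted p = 0.0790), with cisplatin lower in 4 of 4 pairs, and the paired exact permutation p for Rpl22l1 against Rpl22 was 0.125, the smallest that 4 pairs allow. Changes of bright genes can be read only as far as their signal still follows the amount of RNA, which these files do not measure. The cause of each difference between settings was not tested, except that centring lowers every change by 0.13.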
